A study of Mus musculus with 6 samples.

Results

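The liver makes most of the plasma proteins that clot blood and most of those of the complement system. The genes described here are 37 genes, 22 of the coagulation cascade and 15 of the complement cascade. They were chosen by name from a list of liver-made coagulation and complement genes. Of these, 33 were measured, 20 coagulation and 13 complement genes, among 22180 genes in all. Klkb1 and Masp2 lay only on probe sets with several gene symbols and were left out, and Cpb2 and C3 were not analysed here. Liver tissue of 6 mice was measured with 1 single-colour whole-transcript array per mouse, 3 wild-type C57BL/6J controls and 3 ErbB4-/- mice, which the design text calls biological replicates. ErbB4 is a receptor tyrosine kinase that binds neuregulins. Its complete loss is lethal in the embryo, so the ErbB4-/- line carries a transgene that overexpresses the receptor in the heart (ErbB4-/-HER4heart), and it was backcrossed to C57BL/6J. The rescue transgene and the lack of the receptor cannot be told apart in this comparison. All 6 mice, controls included, had been injected once, at postnatal day 14, with DEN, which in liver research stands for the carcinogen diethylnitrosamine. For the time of dissection the protocol states 32 weeks in all mice, but the sample labels run from 32 over 33 to 34 weeks in control and from 35 over 36 to 37 weeks in ErbB4-/- mice.

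Coagulation is a chain of serine proteases that starts when tissue factor meets factor VII, or on charged surfaces through factor XII, and ends with thrombin cutting fibrinogen to fibrin. Anticoagulant proteins, such as protein C and protein S, switch the cofactors off, and plasmin dissolves the clot. Complement is a second chain, started by antibody, by mannose-binding lectins or spontaneously, whose convertases cut C3 and C5 and whose last components form a pore in the target membrane. Hepatocytes make most proteins of both chains, while factor VIII comes mainly from sinusoidal endothelial cells and C1q from macrophages. In mice, females are known to have lower levels of terminal complement components than males, and fibrinogen is an acute phase protein that hepatocytes induce in inflammation.

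The promoters of 5 members are shown because the results below turn on these genes. F9 and Fgg had lower values on every ErbB4-/- array than on any control array, and C6, C8b and C9 shared a low value on 1 control array. Each sequence is from RefSeq, build GRCm38.p6, plus strand, and runs from 250 bases before the gene's start to 50 bases after it. The windows are chrX:59999214-59999513 for F9, chr3:83007474-83007773 for Fgg, chr15:4726960-4727259 for C6, chr4:104766067-104766366 for C8b and chr15:6445096-6445395 for C9. Capitals mark matches, on either strand, to GTTAAT (a partial site of the hepatocyte factor HNF1), TTNNGCAA (C/EBP), TTCNNNGAA (STAT) and CTGGGAA (the core of an IL-6 response element).
F9: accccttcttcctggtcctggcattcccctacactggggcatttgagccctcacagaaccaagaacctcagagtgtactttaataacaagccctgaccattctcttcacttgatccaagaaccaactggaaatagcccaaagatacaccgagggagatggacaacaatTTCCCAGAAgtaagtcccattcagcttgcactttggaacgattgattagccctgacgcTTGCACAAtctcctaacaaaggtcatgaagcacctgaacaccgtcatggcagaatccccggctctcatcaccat
Fgg: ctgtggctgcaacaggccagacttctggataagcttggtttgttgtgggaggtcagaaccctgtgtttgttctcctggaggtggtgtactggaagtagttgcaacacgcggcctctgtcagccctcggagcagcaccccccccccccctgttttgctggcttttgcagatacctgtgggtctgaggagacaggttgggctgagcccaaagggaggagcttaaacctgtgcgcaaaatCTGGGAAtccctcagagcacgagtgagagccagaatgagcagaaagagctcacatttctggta
C6: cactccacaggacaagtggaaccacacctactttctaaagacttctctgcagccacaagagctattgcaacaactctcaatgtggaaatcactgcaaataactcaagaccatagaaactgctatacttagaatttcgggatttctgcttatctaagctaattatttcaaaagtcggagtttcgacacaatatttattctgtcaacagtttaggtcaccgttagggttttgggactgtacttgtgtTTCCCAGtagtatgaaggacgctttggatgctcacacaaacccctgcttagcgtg
C8b: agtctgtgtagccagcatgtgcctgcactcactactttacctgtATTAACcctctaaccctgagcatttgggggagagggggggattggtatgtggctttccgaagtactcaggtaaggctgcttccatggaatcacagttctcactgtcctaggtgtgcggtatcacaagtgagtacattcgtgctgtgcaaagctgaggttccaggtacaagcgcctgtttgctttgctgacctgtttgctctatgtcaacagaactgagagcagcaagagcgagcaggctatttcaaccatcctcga
C9: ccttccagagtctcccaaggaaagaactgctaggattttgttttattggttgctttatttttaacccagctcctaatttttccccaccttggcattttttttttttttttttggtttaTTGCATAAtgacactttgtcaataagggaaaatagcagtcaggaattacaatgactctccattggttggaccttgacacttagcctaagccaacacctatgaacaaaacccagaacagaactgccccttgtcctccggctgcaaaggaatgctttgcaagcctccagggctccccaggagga
In F9 the STAT and IL-6 matches overlap, and a C/EBP match lies nearer to the start. Fgg and C6 each hold 1 IL-6 core match, C8b 1 HNF1 match and C9 1 C/EBP match, so the 3 complement promoters have none of these matches in common. A promoter was found for 26 of the 33 measured members. The HNF1 letters was present in 7 of 17 coagulation promoters (41.2%), namely those of F13b, F2, Fga, Fgb, Hgfac, Proz and Vtn, and in 4 of 9 complement promoters (44.4%), those of C4bp, Hc, C8a and C8b. Over all 32851 promoters of the table, which share this length, the share was 7.10%. The STAT letters were found in 6 coagulation promoters (35.3%) and 1 complement promoter (11.1%), against 8.30% of all promoters. The C/EBP and IL-6 letters were each found in 4 coagulation promoters (23.5%) and 1 complement promoter (11.1%), against 10.8% and 11.1% of all. These shares are descriptions of letters, not of bound sites.

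All values below are log2 signals as deposited, differences are ErbB4-/- minus control on that scale, and SD is over n = 3 arrays. A low log2 value can be background. A gene passed when its Benjamini-Hochberg adjusted p over all 22180 genes was below 0.05 in limma. Erbb4 itself measured 5.42, 5.73 and 5.42 in control and 4.75, 5.36 and 5.61 in ErbB4-/- liver and did not pass (limma, adjusted p = 0.772), and it therefore gives no check of the genotype. The tissue label was borne out by 10 hepatocyte markers, whose mean level lay between 13.31 and 13.40 in control and 13.26 and 13.32 in ErbB4-/- liver. Markers of pancreas, skeletal muscle and adipose tissue had mean levels between 4.34 and 5.50 on every array. Control replicate 1 stood apart in sex-biased liver genes. Its 9 male-biased genes had a mean of 6.64, against 9.98 to 10.26 on the other 5 arrays, and its 9 female-biased genes a mean of 7.42, against 5.54 to 5.92. The labels give no sex. ErbB4-/- replicate 3 had the lowest level of 10 sinusoidal endothelial markers, at 7.15 against 7.77 to 8.83 elsewhere, and of 10 macrophage markers, at 7.35 against 7.98 to 8.88. Values without these arrays are given for some of the members for which leaving them out turned a sign or moved a value by much. For every member whose sign turned with 1 array left out, the closing section gives the range over such fits.

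No gene of either cascade passed the test between ErbB4-/- and control liver. None of the 20 coagulation genes and none of the 13 complement genes passed, with adjusted p between 0.760 and 0.999, where 0.00451% of all genes and 0.00902% of the 11090 genes at or above the median level passed (limma). The median difference was -0.058 over the coagulation genes and 0.014 over the complement genes, beside 0.015 over all genes. Of the coagulation genes 13 had a negative and 7 a positive difference, and of the complement genes 6 a negative and 7 a positive one. At an unadjusted p under 0.05 there were 4 coagulation genes, F9, Kng1 and F8 with lower and Proc with higher values in ErbB4-/- liver, and 0 complement genes. Over all genes 5.72% were under that p, 2.94% lower and 2.77% higher, and among genes at or above the median level 7.72%, 4.56% lower and 3.16% higher. The count of coagulation genes under that p changed when single arrays were left out. It was 1 lower and 0 higher without control replicate 3 or without ErbB4-/- replicate 3, and 5 lower and 0 higher without control replicate 2. The shares over all genes given above are for the fit on all 6 arrays and were not computed for these fits. This count was 0 in both directions with week as a covariate. The labelled weeks do not overlap between the groups, so week and genotype can barely be told apart in that fit, here and below. A lost count or a turned sign under it therefore does not show that a difference depends on week. The count of lower complement genes was 1 without control replicate 2, after median centring or with week as a covariate, and 2 with control replicate 1 and ErbB4-/- replicate 3 left out together. The arrays set a narrow bound for most members. The 95% interval of the difference lay within a 2-fold change either way for 31 members, all but F8 and C6, and within 0.5 log2 units for 16 of 20 coagulation and 10 of 13 complement genes.

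**Figure D1:**
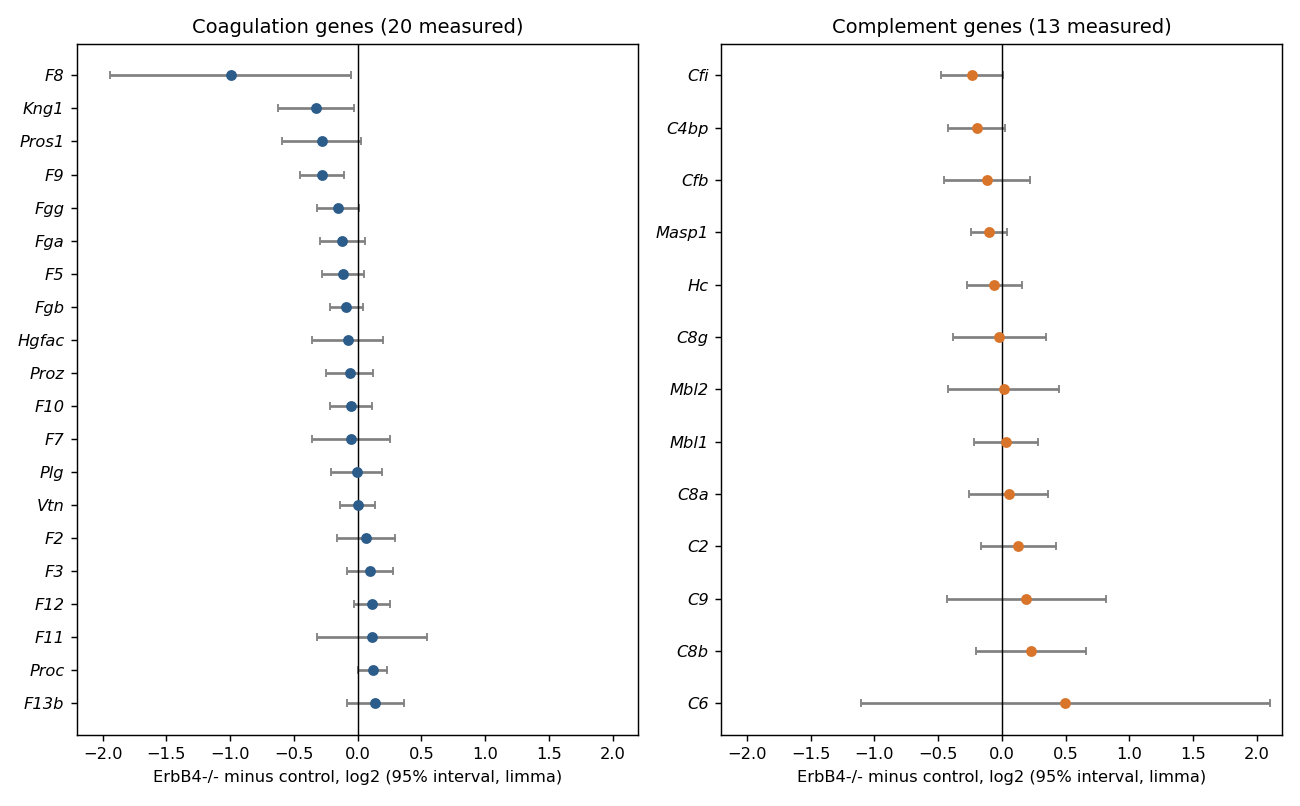
Difference of each measured member between ErbB4-/- and control liver, in log2 units on the horizontal axis, with the 95% interval from limma (n = 3 arrays a group), for coagulation genes on the left and complement genes on the right. Most points lie close to 0 with short bars, while F8, at -0.99, and C6, at 0.50, have the widest intervals of their cascades.

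The 2 groups did not overlap for 5 coagulation genes, 4 lower and 1 higher, and for 3 complement genes, all lower. Among all genes 3.81% were lower and 4.52% higher without overlap, and among those at or above the median level 5.73% and 5.31%. The genes with lower values were Kng1, F9, F5, Fgg, Masp1, Cfi and C4bp, and the 1 with higher values was Proc. The gap between the groups was small for several of them. It was 0.13 for Kng1, 0.11 for F9, 0.063 for Proc, 0.058 for Cfi and 0.033 for Fgg, and only 0.0042 for C4bp, 0.0016 for F5 and 0.00069 for Masp1. Without control replicate 1, 5 coagulation genes were lower and 4 higher without overlap, and 4 complement genes were lower and 0 higher. Groups with fewer arrays separate more easily, and the share over all genes was not computed for that setting.

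**Figure D2:**
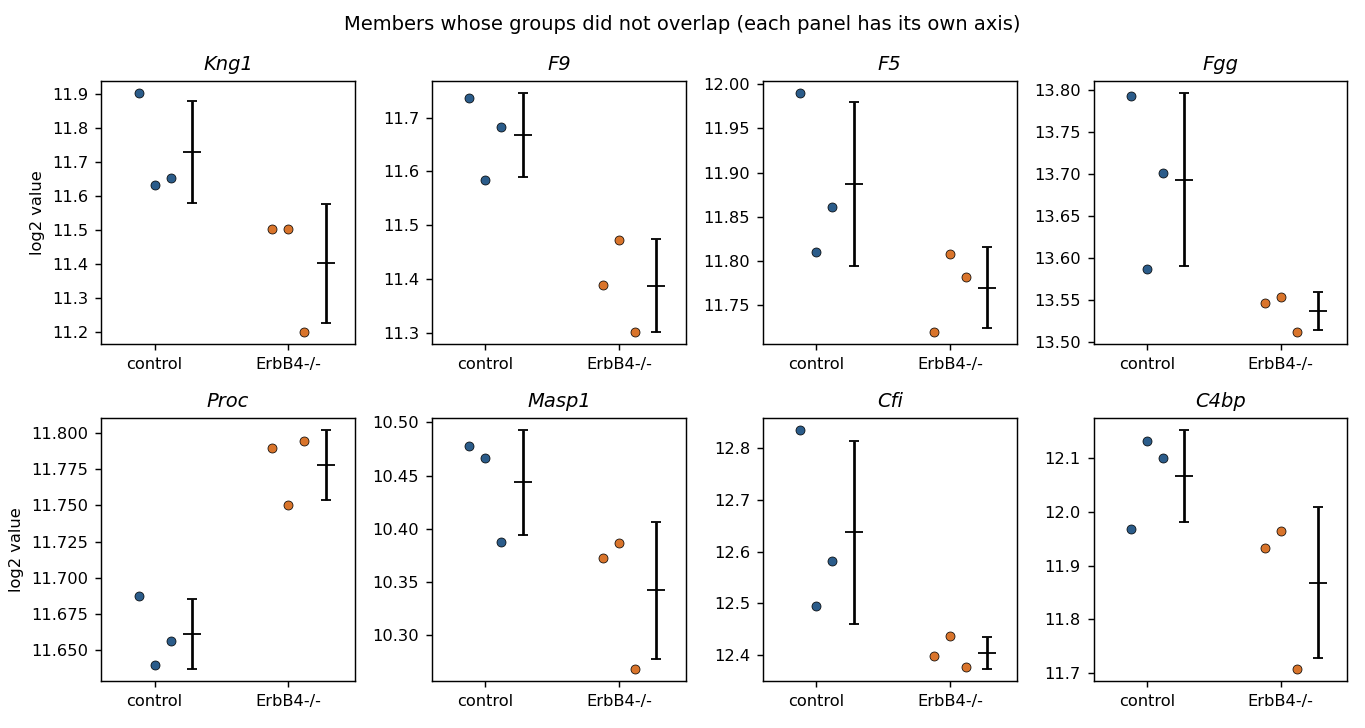
Log2 value of each array (points) for the 8 members whose control and ErbB4-/- arrays did not overlap, with the mean and SD of the 3 arrays beside them. The vertical axis differs between panels and does not start at 0, so a gap as small as that of Masp1 (0.00069) is visible only as touching points.

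Among the genes that start coagulation, Kng1 stood lowest relative to control. Kng1 encodes kininogen, the cofactor of the contact phase that releases bradykinin, and measured 11.90, 11.63 and 11.65 in control and 11.50, 11.50 and 11.20 in ErbB4-/- liver. Control replicate 1 was the highest array and ErbB4-/- replicate 3 the lowest. It differed by -0.33 (standard error 0.12), a 1.26-fold lower value that did not pass (limma, adjusted p = 0.760). It was -0.24 without control replicate 1, -0.23 without ErbB4-/- replicate 3 and -0.14 without both, and it turned to 0.086 with week as a covariate. F12, the contact factor that activates factor XI, measured 11.69, 11.63 and 11.65 against 11.68, 11.81 and 11.80, a difference of 0.11. The groups overlapped through ErbB4-/- replicate 1. F7, the partner of tissue factor, had means of 10.84 ± 0.23 in control and 10.79 ± 0.044 in ErbB4-/- liver, and F11, a protease of the intrinsic chain, 10.09 ± 0.17 and 10.20 ± 0.30. F3, which encodes tissue factor itself, had values between 5.51 and 5.80, a low signal for which 4 of the 6 arrays gave the same value.

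The factors that build the tenase and prothrombinase complexes held the member with the smallest unadjusted p, F9, and the one with the largest difference, F8. F9, the protease of the tenase complex, whose loss causes haemophilia B, measured 11.74, 11.58 and 11.68 in control and 11.39, 11.47 and 11.30 in ErbB4-/- liver. Every ErbB4-/- array lay below every control array, and the means were 11.67 ± 0.078 and 11.39 ± 0.086. This is a difference of -0.28 (standard error 0.070, 95% interval from -0.46 to -0.10), a 1.21-fold lower value that did not pass (limma, adjusted p = 0.760). It kept its direction and lay between -0.32 and -0.24 when any 1 array was left out, and was -0.17 with week as a covariate. F8, the cofactor of factor IX, whose loss causes haemophilia A, measured 8.57, 9.17 and 9.38 in control and 8.76, 7.89 and 7.49 in ErbB4-/- liver. The groups overlapped, since control replicate 1 lay below ErbB4-/- replicate 1. Its difference of -0.99 (standard error 0.38), a 1.99-fold lower value, was the largest of the 33 members and did not pass either (limma, adjusted p = 0.760).

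Markers of sinusoidal endothelium had the same extreme arrays as F8, as did markers of several other cell types. The mean of 10 endothelial markers was 8.39, 8.66 and 8.83 in control and 8.38, 7.77 and 7.15 in ErbB4-/- liver, so control replicate 3 was the highest array and ErbB4-/- replicate 3 the lowest for both. All 10 endothelial markers had negative differences, with a median of -0.84. The same arrays were highest and lowest for the means of 10 macrophage markers, at 8.88 and 7.35, and of 8 stellate markers, at 7.93 and 7.20. They were so too for the 10 hepatocyte markers, at 13.40 and 13.26, but not for 8 neutrophil markers. All 8 stellate markers had negative differences. The part of any of these cell types in the F8 difference was not tested. In bulk tissue, fewer cells of a type and less RNA per cell cannot be told apart. Without ErbB4-/- replicate 3 the F8 difference was -0.72, without ErbB4-/- replicate 1 it was -1.35, and without control replicate 1 it was -1.23. With week as a covariate it was -0.65.

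The other factors of these complexes differed little. F5, the cofactor of factor Xa, measured 11.99, 11.81 and 11.86 in control and 11.72, 11.81 and 11.78 in ErbB4-/- liver, a difference of -0.12 that was -0.066 without control replicate 1. F10, the protease of prothrombinase, had means of 11.56 ± 0.11 and 11.51 ± 0.0053, and F2, which encodes prothrombin, 12.38 ± 0.077 and 12.45 ± 0.15. F7, F10 and Proz are neighbours on chromosome 8, and each had its highest value in control replicate 1, at 11.10, 11.68 and 11.55.

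The 3 fibrinogen chain genes, neighbours on chromosome 3, all had small negative differences. Fgg, the gamma chain, measured 13.79, 13.59 and 13.70 in control and 13.55, 13.55 and 13.51 in ErbB4-/- liver. The groups did not overlap, and Fgg differed by -0.16 (standard error 0.066; limma, adjusted p = 0.760). Fgb, the beta chain, measured 13.80, 13.71 and 13.81 against 13.71, 13.69 and 13.65, a difference of -0.091, and Fga, the alpha chain, 12.94, 12.78 and 12.96 against 12.84, 12.71 and 12.78, a difference of -0.12. With week as a covariate the Fgg difference was -0.061. For all 3 chains control replicate 2 was the lowest control. The same array had the lowest mean of 12 acute phase genes among the controls, at 10.30 against 11.79 and 11.08 in control replicates 1 and 3, while the ErbB4-/- arrays measured 10.36, 10.23 and 10.66. The part of the acute phase level in the fibrinogen differences was not tested. F13b, the carrier subunit of the factor that cross-links fibrin, differed the other way, with 10.57 ± 0.16 in control and 10.71 ± 0.048 in ErbB4-/- liver.

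Among the anticoagulant vitamin K-dependent proteins, Proc and Pros1 had differences of opposite sign. Proc, the gene of protein C, measured 11.69, 11.64 and 11.66 in control and 11.79, 11.75 and 11.79 in ErbB4-/- liver, 0.12 higher (standard error 0.045). It was the 1 member with higher values and no overlap between the groups, and it did not pass (limma, adjusted p = 0.760). After a further quantile normalization the groups overlapped. Pros1, which encodes protein S, the cofactor of activated protein C, had means of 9.32 ± 0.16 and 9.03 ± 0.18 and a difference of -0.28, with ErbB4-/- replicate 1 lowest at 8.83. Proz, the gene of protein Z, had means of 11.41 ± 0.12 and 11.35 ± 0.030.

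Genes of fibrinolysis and related plasma proteins were the flattest group. Plg, the gene of plasminogen, measured 13.10, 12.93 and 12.98 in control and 12.92, 12.94 and 13.12 in ErbB4-/- liver, -0.0081 apart, with a 95% interval from -0.21 to 0.19. Vtn, which encodes the adhesive protein vitronectin, had means of 13.22 ± 0.049 and 13.22 ± 0.055. Hgfac, the activator of hepatocyte growth factor, measured 9.77, 9.61 and 9.54 against 9.37, 9.71 and 9.61. The groups overlapped for all 3 genes.

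In the complement cascade, the lectin start was flat. Masp1, a protease that mannose-binding lectins carry, measured 10.48, 10.47 and 10.39 in control and 10.37, 10.39 and 10.27 in ErbB4-/- liver, a difference of -0.10 that turned to 0.044 with week as a covariate. Its groups touched at control replicate 3 and ErbB4-/- replicate 2. Mbl1, a mannose-binding lectin, measured 9.83, 10.01 and 10.17 against 9.95, 10.05 and 10.11, a difference of 0.033, and Mbl2, its paralog, had means of 10.33 ± 0.11 and 10.35 ± 0.33. Of the convertase components, the neighbours C2 and Cfb on chromosome 17 had small differences that depended on single arrays. C2, the protease of the classical and lectin convertase, measured 8.66, 8.75 and 8.76 in control and 8.73, 8.73 and 9.11 in ErbB4-/- liver. Its difference of 0.13 came from ErbB4-/- replicate 3 and was 4.4e-04 without it. Cfb, factor B of the alternative convertase, had means of 11.98 ± 0.19 and 11.86 ± 0.18. Its difference of -0.12 was -0.014 without control replicate 1, -0.029 without ErbB4-/- replicate 1 and -0.21 without ErbB4-/- replicate 3. With week as a covariate both genes had negative values, -0.23 for C2 and -0.20 for Cfb, and with control replicate 1 and ErbB4-/- replicate 3 left out together they were -0.031 and -0.11.

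Both measured regulators had lower values without overlap. Cfi, the protease that inactivates C3b and C4b, measured 12.84, 12.49 and 12.58 in control and 12.40, 12.44 and 12.38 in ErbB4-/- liver. Control replicate 1 was the highest array, and the 3 ErbB4-/- arrays lay close together. It differed by -0.23 (standard error 0.097), with an adjusted p of 0.760 in limma. Without control replicate 1 it was -0.14, and with week as a covariate -0.027. C4bp, the binding protein that serves as a cofactor in the cleavage of C4b, measured 11.97, 12.13 and 12.10 against 11.93, 11.96 and 11.71, or -0.20 (standard error 0.091). Here control replicate 1 was the lowest control, and the difference was -0.25 without it and -0.12 without ErbB4-/- replicate 3.

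Of the 6 membrane attack genes, C6, C9, C8b and C8a had positive differences that came from low values on 1 control array. C6, which joins C5b to start the pore, measured 8.21 in control replicate 1, against 10.36 and 10.60 in the other controls and 10.31, 10.16 and 10.20 in ErbB4-/- liver. C9, which polymerises into the pore, measured 11.17 there, against 12.03 and 12.01 in the other controls and 11.84, 11.88 and 12.07 in ErbB4-/- liver. C8b, a chain of C8, measured 11.37 there, against 11.93 and 11.98 in the other controls and 11.98, 11.99 and 12.00 in ErbB4-/- liver. C8a, the neighbour of C8b on chromosome 4, was also lowest there, at 11.64 against 11.85 to 12.09 on the other arrays. C9 and C8a were singled out after their values were seen.

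With all arrays the differences were 0.50 for C6, 0.19 for C9, 0.23 for C8b and 0.054 for C8a, and none passed (limma, adjusted p between 0.762 and 0.903). Without control replicate 1 they were -0.26, -0.091, 0.031 and -0.069, so 3 of the 4 turned sign. Control replicate 1 is the array with the low male-biased and high female-biased levels given above, and the part of that pattern in these 4 genes was not tested. The SD of C6 was 1.32 in control and 0.077 in ErbB4-/- liver. C8g, the third chain of C8, had its lowest value in ErbB4-/- replicate 3, at 11.41, and means of 11.73 ± 0.12 and 11.71 ± 0.26. Its difference of -0.020 was 0.13 without that array. Hc, which encodes C5, had means of 12.69 ± 0.061 and 12.63 ± 0.14, and its value in control replicate 1, 12.71, lay within the range of the other arrays. Its difference of -0.060 was -0.049 without control replicate 1, -0.13 without ErbB4-/- replicate 3 and 0.014 without ErbB4-/- replicate 2.

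**Figure D3:**
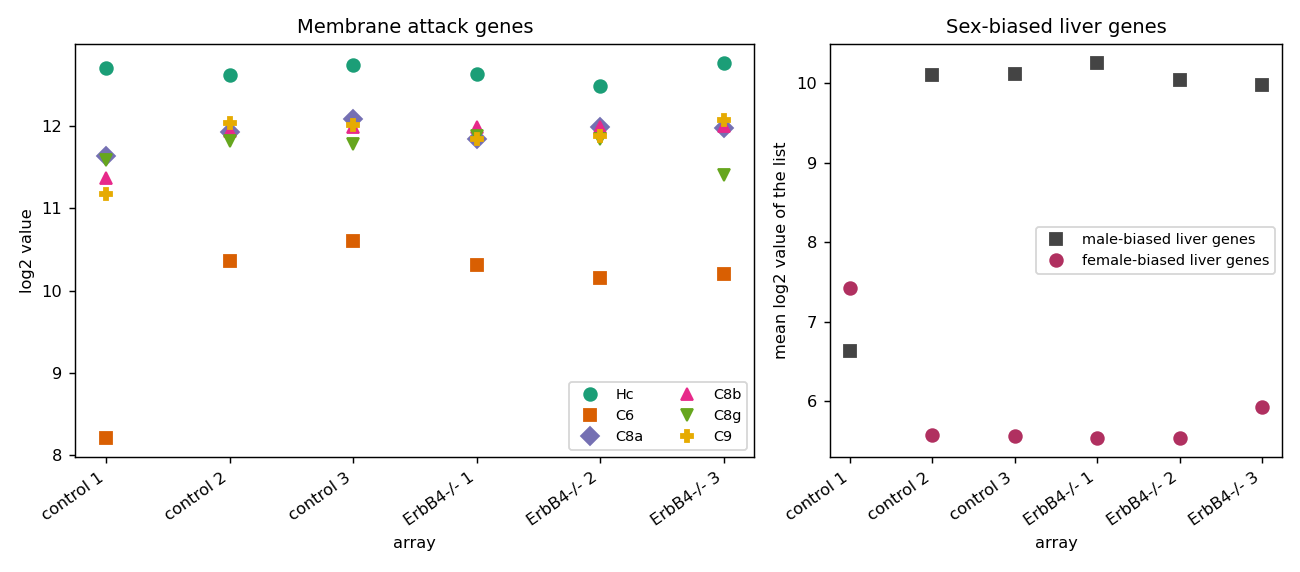
Log2 values of the 6 membrane attack genes on each array (left) and the mean log2 level of 9 male-biased and 9 female-biased liver genes on the same arrays (right). C6, C8b and C9 are low on control replicate 1, at 8.21, 11.37 and 11.17, where the male-biased mean is 6.64 and the female-biased mean 7.42.

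Control replicate 1 ranked at opposite ends for several members of the 2 cascades. It had the highest value of all 6 arrays for 9 of 20 coagulation genes (45.0%) and the lowest for 0, while it had the lowest value for 6 of 13 complement genes (46.2%) and the highest for 3. Over all genes it was highest for 19.2% and lowest for 19.8%. Of those 6 complement genes 3 were C6, C8b and C9, and among the other 10 complement genes control replicate 1 was lowest for 3 and highest for 3. ErbB4-/- replicate 3 ranked much alike in both, lowest for 6 coagulation (30.0%) and 4 complement genes (30.8%) and highest for 6 (30.0%) and 5 (38.5%). Over all genes that array was lowest for 20.0% and highest for 23.6%. Without control replicate 1 the median difference was 0.0088 over the coagulation genes and -0.069 over the complement genes, so both medians changed sign. Without both control replicate 1 and ErbB4-/- replicate 3 they were -0.016 and -0.088. With week as a covariate they were -0.037 and -0.23. No difference between the cascades was tested. The within-group SD of a member had a median of 0.089 over coagulation and 0.17 over complement genes. Exact ties between arrays occurred in 5 coagulation genes and 1 complement gene, and in 57.5% of all genes. A tie for highest or lowest was counted for the first of the tied arrays, in the order control 1 to 3, then ErbB4-/- 1 to 3. The shares over all genes can therefore be too high for control replicate 1 and too low for ErbB4-/- replicate 3.

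Other genes of the cascades, which were not members, were read from the same fit. Of 28 other coagulation genes none passed, and the median difference was -0.060. At an unadjusted p under 0.05, 2 were lower (7.14%) and 1 higher. Over all genes 2.94% were lower and 2.77% higher at that p, and among genes at or above the median level 4.56% and 3.16%. So few genes do not set this list apart from those shares. Vkorc1, the reductase that recycles vitamin K for the clotting factors, measured 10.79, 10.80 and 10.81 in control and between 10.88 and 11.06 in ErbB4-/- liver, a difference of 0.18 that was 0.032 with week as a covariate. Serpinc1, which encodes antithrombin, measured 12.65, 12.71 and 12.73 against 12.56, 12.57 and 12.38, a difference of -0.19 that was -0.13 without ErbB4-/- replicate 3 and -0.12 with week as a covariate. F13a1, the catalytic subunit of factor XIII, made by macrophages and platelets, had low values of 4.74 ± 0.21 and 4.42 ± 0.059.

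Several complement genes outside the member list, some of them made by macrophages, had larger negative differences than any complement member. Of 27 measured, 23 had negative differences, and the median was -0.26. At an unadjusted p under 0.05, 11 were lower (40.7%) and 0 higher. This stands beside 2.94% lower of all genes and 4.56% lower of genes at or above the median level. None passed (limma, adjusted p = 0.760 for each of the 11). The list was chosen with earlier results of these data known and was not limited to 1 cell type. Among its genes C4b, Clu and C1s1 differed little, by -0.13, -0.015 and -0.059. Itgb2, the beta chain of the complement receptors CR3 and CR4, measured 7.49, 7.18 and 7.42 in control and 6.78, 6.65 and 6.35 in ErbB4-/- liver, a difference of -0.76. C1qa and C1qc, chains of C1q, had differences of -0.63 and -0.77. C1qa measured 8.16, 8.30 and 8.43 against 7.97, 7.66 and 7.38, and C1qc 7.39, 7.63 and 7.76 against 7.24, 6.62 and 6.60. The third chain, C1qb, named here to complete the molecule after its values were seen, differed by -1.11, with overlap between control replicate 1 and ErbB4-/- replicate 1. Vsig4, the complement receptor of Kupffer cells, measured 9.40, 9.61 and 10.07 against 9.10, 8.54 and 7.80, a difference of -1.22. Colec10, a collectin of the lectin pathway, differed by -0.76, and Cd55, a cell-surface inhibitor of the convertases, by -0.76. The rest of the 11 were Itgam, at -0.93, Fcna, at -0.78, Colec11, at -0.26, and Cfhr2, at -0.20. For Itgb2, C1qa, C1qc, Vsig4, Colec10 and Cd55 the groups did not overlap, nor for Itgam, Fcna, Colec11 and Cfhr2. Of the 27 genes, 12 were lower and 0 higher without overlap. Among all genes 3.81% were lower without overlap, and among those at or above the median level 5.73%. Without ErbB4-/- replicate 3 the differences were -0.64 for Itgb2, -0.48 for C1qa, -0.66 for C1qc, -0.80 for C1qb, -0.87 for Vsig4, -0.55 for Colec10 and -0.67 for Cd55. Without control replicate 1 the same 7 genes lay between -1.36 and -0.70, and with week as a covariate between -0.81 and -0.39.

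**Figure D4:**
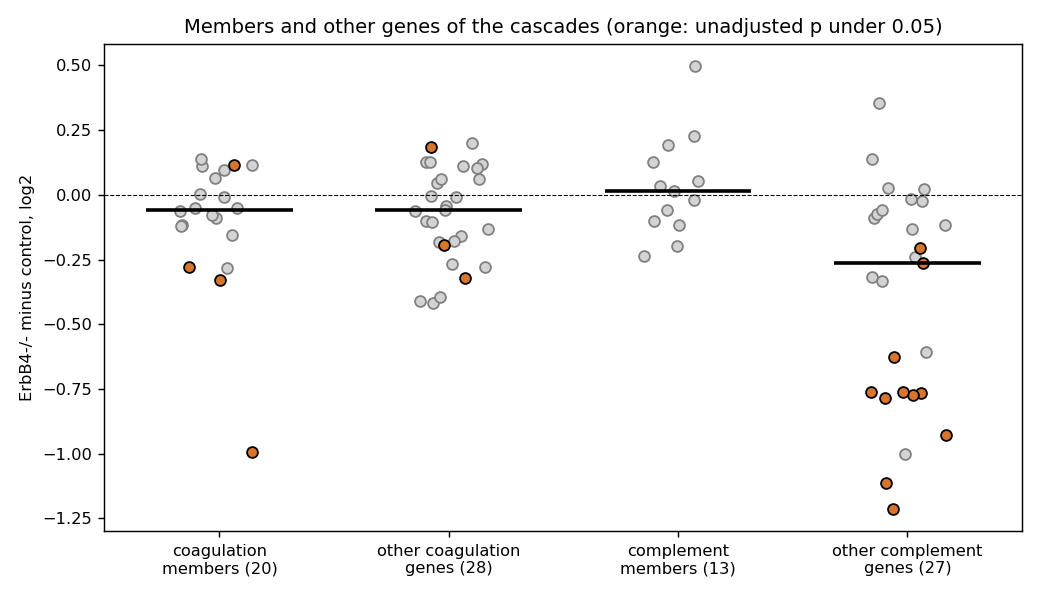
Difference between ErbB4-/- and control liver in log2 units for each measured gene (points), with the median as a bar, for members and other genes of each cascade, the number of genes in brackets. Orange points had an unadjusted p under 0.05, and 11 of them lie below 0 among the other complement genes, against 0 among the complement members.

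Macrophage markers also had lower means on all ErbB4-/- arrays. The mean of 10 Kupffer cell and macrophage markers, of which Vsig4 is 1, was 8.64, 8.63 and 8.88 in control and 8.20, 7.98 and 7.35 in ErbB4-/- liver, and all 10 had negative differences. The mean of 8 neutrophil markers was 7.34, 5.20 and 6.98 in control and between 4.51 and 4.83 in ErbB4-/- liver. Their part in the complement differences was not tested. The 10 hepatocyte markers had a median difference of -0.025, and 8 of them had negative differences. The largest was that of Hnf4a, at -0.30, without overlap between the groups, and it did not pass (limma, adjusted p = 0.760). The count of 11 lower genes was 6 without ErbB4-/- replicate 3, 3 without ErbB4-/- replicate 2, 5 without control replicate 2 and 3 without control replicate 3. These alternatives for the count were chosen after seeing the data. It was 9 without control replicate 1, 7 with the replicate block and 0 with week as a covariate, where 21 of 27 still had negative differences. The shares over all genes were not computed for any of these fits. Fits on fewer arrays also have less power, so a lower count does not show that these genes depend on the array left out.

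**Figure D5:**
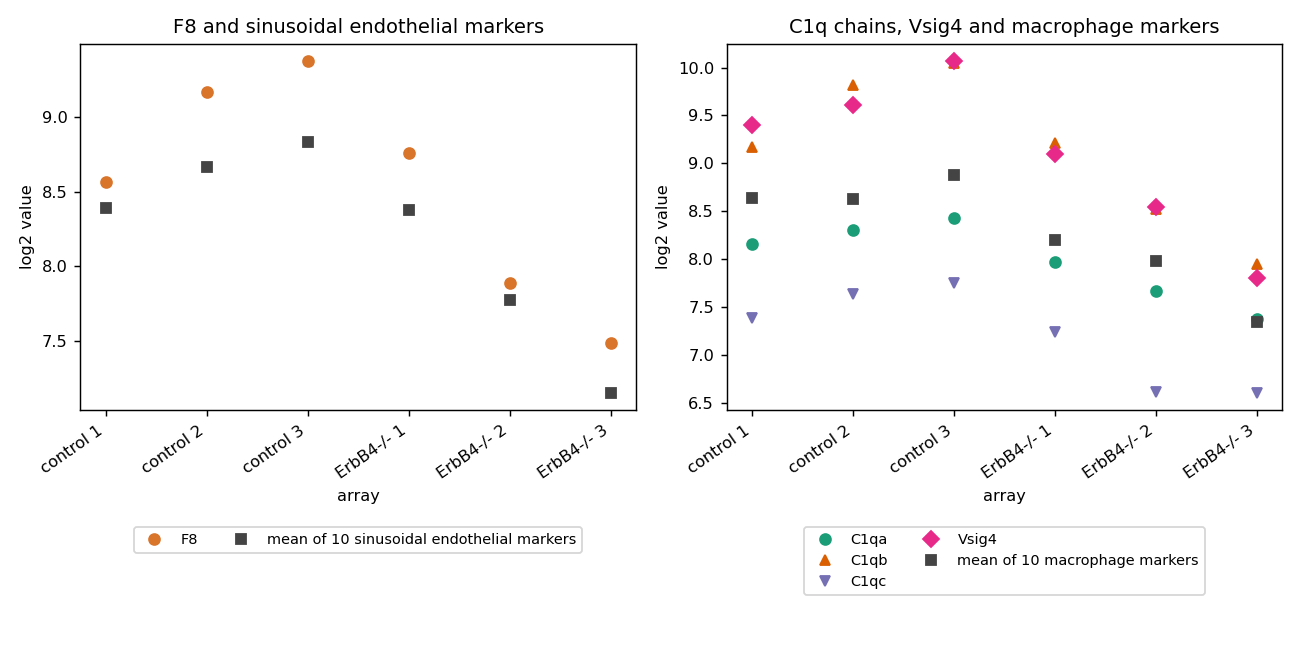
Log2 values on each array of F8 beside the mean of 10 sinusoidal endothelial markers (left), and of the C1q chains and Vsig4 beside the mean of 10 macrophage markers (right). ErbB4-/- replicate 3 is lowest for F8, at 7.49, for Vsig4, at 7.80, and for both marker means, at 7.15 and 7.35.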

How the data were processed

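Per the labels' protocols, Trizol RNA was carried through Affymetrix whole-transcript amplification and biotin labelling. The authors deposited 1 log2 signal per probe set and array, already normalized. The background correction, normalization, summarisation and genome build are not given in the sources used here, and the log base was taken from the range of 1.74 to 14.4. Of 41345 probe sets, 23521 had 1 gene symbol in the platform annotation, 1814 several and 16010 were unnamed here. The probe set with the highest mean stood for a gene, which gave 22180 genes, and each measured member had 1 probe set. RefSeq gene identifiers (GRCm38.p6) updated 0 symbols. Differences were fitted with limma 3.58.1 (lmFit, eBayes) under R 4.3.3, with two-sided p-values, with genotype as the only term and Benjamini-Hochberg adjustment over all genes, with no filter on dim probe sets. The fit was tested on simulated data. An exact permutation test of 3 against 3 arrays cannot go below 0.10 and was not used.

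Every member is accounted for. Array values are given for the members with the smallest unadjusted p in each role group, for those under 0.05 and for those without overlap. Up to 6 other genes per cascade under 0.05 were to be named, and Erbb4. The remaining other complement genes under 0.05 are named as well. Alternatives were further quantile normalization, median centring, a level filter, the mean of probe sets, a trend and robust prior, a replicate block, a week covariate, leaving out arrays and a threshold of 0.1. The members, lists and choices were made with earlier results of these data known. Figures were drawn with matplotlib 3.10.9.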

Additional observations from a re-analysis of the deposited data

How the results depend on the processing

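No coagulation or complement member passed under any alternative or at a threshold of 0.1. Quantile normalization, centring, the level filter, the mean of probe sets, the trend and robust prior and the replicate block kept the sign of every member except Plg, at 0.039 after quantile normalization. With the replicate block the coagulation median stayed at -0.058 and the complement median at 0.014. The deviations of same-numbered arrays from their group means had correlations of -0.10, 0.034 and -0.050. The labels used here give these arrays no link but the number, and the correlations cannot exclude one. With week as a covariate the complement median was -0.23, and the differences turned to 0.26 for F7, 0.086 for Kng1, 0.10 for F10, -0.018 for F2, 0.091 for Proz, -0.056 for Vtn, -0.34 for Mbl1, -0.29 for Mbl2, 0.044 for Masp1, -0.23 for C2, -1.22 for C6, -0.38 for C8a, -0.24 for C8b, 0.20 for C8g and -0.61 for C9. Leaving out both control replicate 1 and ErbB4-/- replicate 3 gave a complement median of -0.088, with 6 complement members lower and 1 higher without overlap. Groups with fewer arrays separate more easily, and no share over all genes was computed for the overlap counts with arrays left out. The same setting turned the differences to 0.078 for F7, 0.012 for F10, -0.0097 for Vtn, -0.088 for Mbl1, -0.043 for Mbl2, -0.031 for C2, -0.25 for C6, -0.087 for C8a, 0.062 for C8g and -0.16 for C9. Leaving out 1 array at a time moved the coagulation median between -0.098 and 0.0088, the complement median between -0.069 and 0.075, the count of coagulation members lower without overlap between 4 and 7 and that of complement members between 3 and 4. It turned the sign of 15 members on at least 1 array, with ranges of -0.13 to 0.081 for F7, -0.025 to 0.27 for F11, -0.090 to 0.0095 for F10, -0.018 to 0.11 for F2, -0.10 to 0.0082 for Proz, -0.071 to 0.042 for Plg, -0.030 to 0.022 for Vtn, -0.15 to 0.018 for Hgfac, -0.053 to 0.12 for Mbl1, -0.11 to 0.20 for Mbl2, -0.13 to 0.014 for Hc, -0.26 to 0.94 for C6, -0.069 to 0.16 for C8a, -0.10 to 0.13 for C8g and -0.091 to 0.34 for C9. The cause of these changes was not tested, and week and genotype can barely be told apart in the fit with week. The number of arrays, 3 a group, limits the precision, and no background signal was used here.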
